A study of Rattus norvegicus with 2 samples.

Results

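The genes described here are 41 interferon-stimulated and MHC class I genes of the rat, chosen by symbol from a fixed list. All 41 were found among the 17455 genes of the deposited expression table, and 35 of them reached a mean of 1 TPM (transcripts per 1000000, a length-corrected share of the library) over the 2 libraries. The RNA came from OPCs (oligodendrocyte precursor cells), progenitors of the glia that wrap axons in myelin. One group was transfected with Slit1, a secreted ligand of Robo receptors, and the other, the control, with a vector, both with a Lonza transfection kit. The cells of both groups are labelled wild type, and each group had 1 library. The labels name neither the strain nor the age of the animals, nor the time in culture. The series title names Slit1 overexpression during OPC differentiation as its subject.

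Interferons are cytokines that cells release on sensing viral nucleic acid or tissue damage. Type I interferons act through the receptor chains Ifnar1 and Ifnar2 and the kinases Jak1 and Tyk2, and a complex that holds Stat2 and Irf9 then binds interferon-stimulated response elements (ISREs) in promoters. Interferon gamma acts through Ifngr1 and Ifngr2, and its signal reaches promoters at gamma-activated sites (GAS). The induced genes include enzymes that block viral replication, guanylate-binding proteins (GBPs), chemokines that attract T cells, and the MHC class I machinery that displays peptides at the cell surface. In the brain, glia hold MHC class I at low levels at rest and raise it on exposure to interferon.

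The libraries held 18998770 estimated counts in Slit1 and 18817462 in control. Slit1 itself measured 229.7 TPM in the Slit1 library and 1.70 TPM in the control library. A gene listed at 0 may still have up to 3 counts, equal at the median gene length to 0.130 TPM in Slit1 and 0.135 TPM in control. With 1 library a group no difference has a replicate check, and no p-value was computed. Intervals of ratios cover counting error only. All 6 OPC markers were present, with a summed level of 1822 TPM in Slit1 and 1937 TPM in control, and of these Sox10 was at least 1.5-fold higher (218 and 71.4 TPM). All 8 astrocyte markers were present as well and summed to 10450 TPM in Slit1 and 9446 TPM in control, led by Gfap at 6130 and 4694 TPM. Of these 8, 4 were above 0 and 4 below, and Slc1a2 (94.1 and 215.4 TPM) and Gja1 (295.7 and 506 TPM) were at least 1.5-fold lower. The 6 neuron markers were present too, summing to 174.9 TPM in Slit1 and 170.7 TPM in control. Most of that sum was Map2 (101.4 and 108.5 TPM) and Tubb3 (46.5 and 33.6 TPM), while Rbfox3 stood at 3.23 and 4.70 TPM. The 4 measured fibroblast and pericyte markers summed to 21.8 and 22.6 TPM. Markers of cell types other than the labelled OPC were thus measured in both libraries. Of 15 microglia and macrophage markers 8 were measured, summing to 5.28 TPM in Slit1 and 3.14 TPM in control, most of it Cd68 (3.77 and 1.91 TPM, ratio 1.97, interval 1.11 to 3.62), with Trem2 at 0 in Slit1 and Itgam and Ctss at 0 in control. The 6 MHC class II genes summed to 3.77 TPM in Slit1 and 1.15 TPM in control, with RT1-Ba at 18.0 and 0 counts. The 2 measured T and NK cell markers summed to 0.36 and 0.15 TPM, and the 7 endothelial markers to 4.47 and 5.96 TPM. In bulk RNA, fewer cells of a type and less RNA per cell cannot be told apart, and which cells the members' transcripts came from was not tested.

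Promoters were read first, since the ISRE is the sequence through which most members are known to be induced. RefSeq promoters of the assembly GRCr8, each 250 bases before and 50 bases after the annotated start, were matched for 35 members; Ifit2, Isg15, Mx2, Usp18, Dhx58 and Zbp1 were not matched. The ISRE was searched as GAAA, then NN, then GAAA (N is any base) and, on the other strand, as TTTC, then NN, then TTTC. It occurred in 23 of the 35 promoters (65.7%), against 4.12% of all 27457 genes with a RefSeq promoter. Of the 10745 such genes at 1 TPM or more here, 3.025% held it. The GAS was searched as TTC, then NNN, then GAA, which reads the same on either strand. It occurred in 9 of 35 (25.7%), against 9.39% of all 27457 genes and 7.06% of the 10745. In Bst2 the GAS match overlapped an ISRE match, and 3 members, Oas1a, Oas1b and Bst2, held a pair of overlapping ISRE matches. A match is a description of these letters and not evidence of binding. The 6 stretches of 120 bases shown here, all upstream of the start, run 5′ to 3′ on the gene's strand with the ISRE in capitals, because they belong to members whose values are described next: oligoadenylate synthetase genes (Oas1a, Oas1b, Oasl2), a sensor (Ifih1) and MHC class I genes (B2m, Tap2).
Oas1a, chr12:41330346-41330465, plus strand: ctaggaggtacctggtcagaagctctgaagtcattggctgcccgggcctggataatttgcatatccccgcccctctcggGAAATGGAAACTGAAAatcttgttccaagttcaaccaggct
Oas1b, chr12:41395853-41395972, minus strand: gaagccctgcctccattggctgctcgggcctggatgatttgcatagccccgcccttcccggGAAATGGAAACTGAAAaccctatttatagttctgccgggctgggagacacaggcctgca
Oasl2, chr12:47383266-47383385, minus strand: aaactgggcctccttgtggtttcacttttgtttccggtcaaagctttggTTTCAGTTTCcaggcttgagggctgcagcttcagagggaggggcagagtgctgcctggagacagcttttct
Ifih1, chr3:67683969-67684088, minus strand: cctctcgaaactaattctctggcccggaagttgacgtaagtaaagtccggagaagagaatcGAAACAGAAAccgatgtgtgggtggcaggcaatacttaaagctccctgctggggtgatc
B2m, chr3:129549130-129549249, plus strand: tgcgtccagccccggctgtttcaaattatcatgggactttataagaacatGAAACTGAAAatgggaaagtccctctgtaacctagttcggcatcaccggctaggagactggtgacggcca
Tap2, chr20:4652297-4652416, minus strand: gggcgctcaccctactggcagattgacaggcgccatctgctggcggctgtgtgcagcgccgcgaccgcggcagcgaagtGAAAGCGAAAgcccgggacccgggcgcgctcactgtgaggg
Oas1a and Oas1b carry the same 16 bases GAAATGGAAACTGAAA, which hold 2 ISRE matches offset by 6 bases. These start at base -41 and base -35 from the start of Oas1a and at -59 and -53 from that of Oas1b. Over the 250 bases before their starts a global alignment of these paralogs gave 187 identical positions, 45 mismatches and 36 gap positions (69.8% identity). B2m has GAAACTGAAA at base -150, and Oasl2 has the reverse complement of the ISRE at base -151. The promoters of Mx1, Oasl, Stat2, Parp9, Trim25, RT1-A1, RT1-A2, Sp100 and Herc6 held neither motif in this window.

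As a set the members differed little between the libraries. Each gene was measured by log2(TPM + 1) in Slit1 minus that in control, a scale that understates the change of low genes, and a gene was counted as higher or lower at 1.5-fold or more on that scale. Of the 35 members at 1 TPM or more, 4 were higher in the Slit1 library (Mx1, Oas1b, Cxcl9 and Oasl2), 2 were lower (Trim25 and Usp18) and 29 lay between. Over all 13175 genes at that floor, 3.72% were higher and 4.83% lower. The 2 lower members (5.71%) thus lay near the background and the 4 higher ones (11.4%) above it, a difference of few genes with no replicate. The counts of the 4 ran from 15.0 in Slit1 and 6.94 in control (Cxcl9) to 157 and 74.8 (Oas1b). None of the 35 differed 2-fold on this scale, a limit passed upward by 1.24% and downward by 0.645% of all genes; Oas1a, under the floor, had a difference of 1.09. The split of all genes depended on the scaling: with CPM (counts per 1000000) scaled by edgeR TMM factors, 4.08% were higher and 3.45% lower, and of the members 3 were higher and 1 lower. The median difference of the members was -0.12, beside -0.05 over all genes. The counting interval of the TPM ratio lay above 1 for 4 of the 35 (22.3% of all genes) and below 1 for 14 (33.6% of all genes), and it held 1 for 17.

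**Figure D1:**
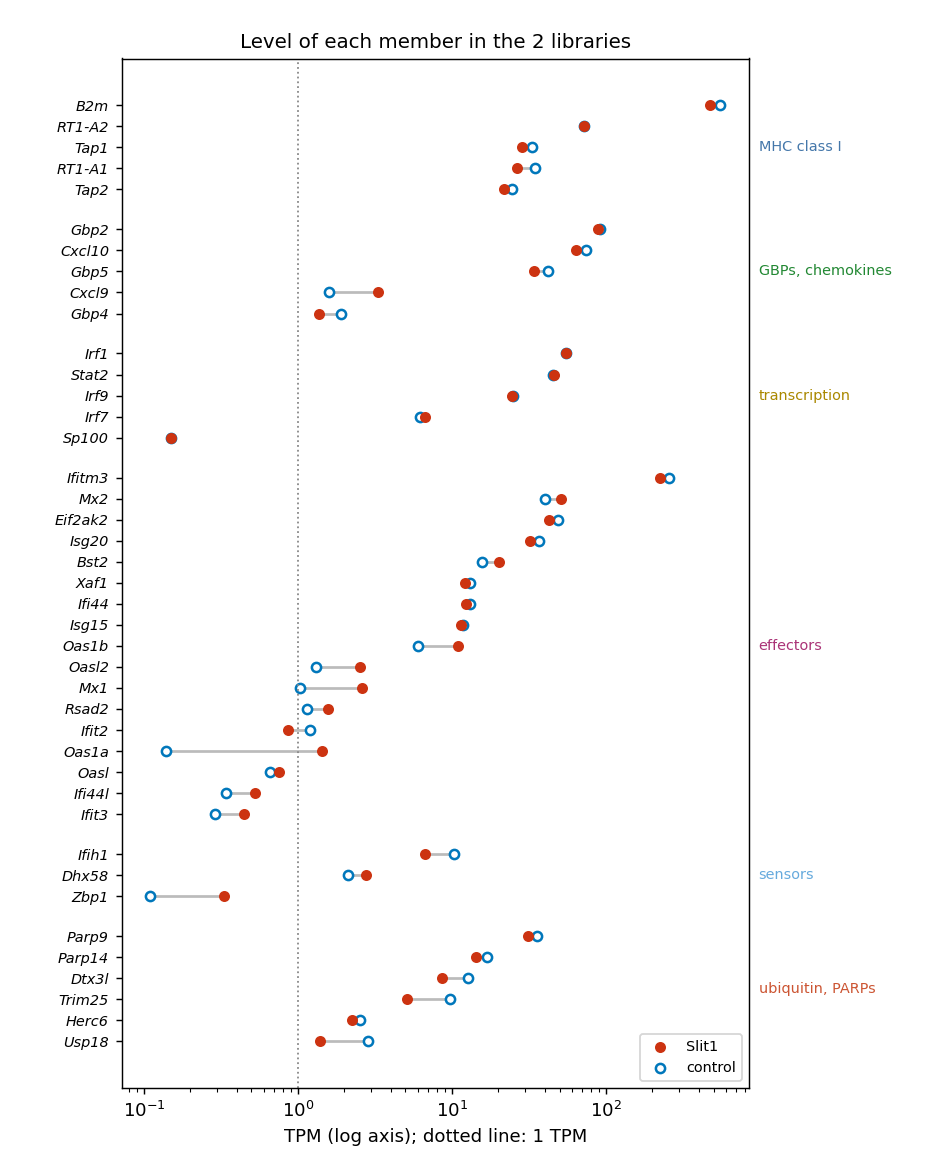
TPM on a log axis of the 41 members in the Slit1 library (filled red) and the control library (open blue), grouped by role and ordered by level within each role, with 1 point per library and no replicate. B2m and Ifitm3 lie above 100 TPM in both libraries, and the widest gaps are those of Oas1a, Zbp1, Mx1, Cxcl9, Oasl2 and Usp18, all under 4 TPM.

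The differences that passed 1.5-fold belonged to scarce members. Of 9 members with a mean of 1 to 5 TPM, 3 were higher and 1 lower, where 6.97% and 8.01% of the 2110 genes at that level were. Of 10 members at 5 to 20 TPM, 1 was higher and 1 lower (4.58% and 6.29% of 3496 genes). None of the 16 members at 20 TPM or more passed the limit in either direction; among all genes 2.64% were higher and 3.59% lower at 20 to 100 TPM, and 1.83% and 2.45% at 100 TPM or more. Most of these abundant members lay slightly below 0: 12 of the 16 did, as did 53.7% of all 7569 genes at 20 TPM or more. The counting interval of the TPM ratio lay below 1 for 9 of the 16 (56.3%, beside 37.6% of all genes at that level). It lay above 1 for 1, Mx2 (6.25%, beside 28.75% of all genes at that level). In CPM the intervals of Cxcl10 (0.806 to 1.003) and Parp9 (0.832 to 1.001), both among the 9, held 1. The differences of the 16 ran from -0.39 to 0.33 on the log2(TPM + 1) scale.

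**Figure D2:**
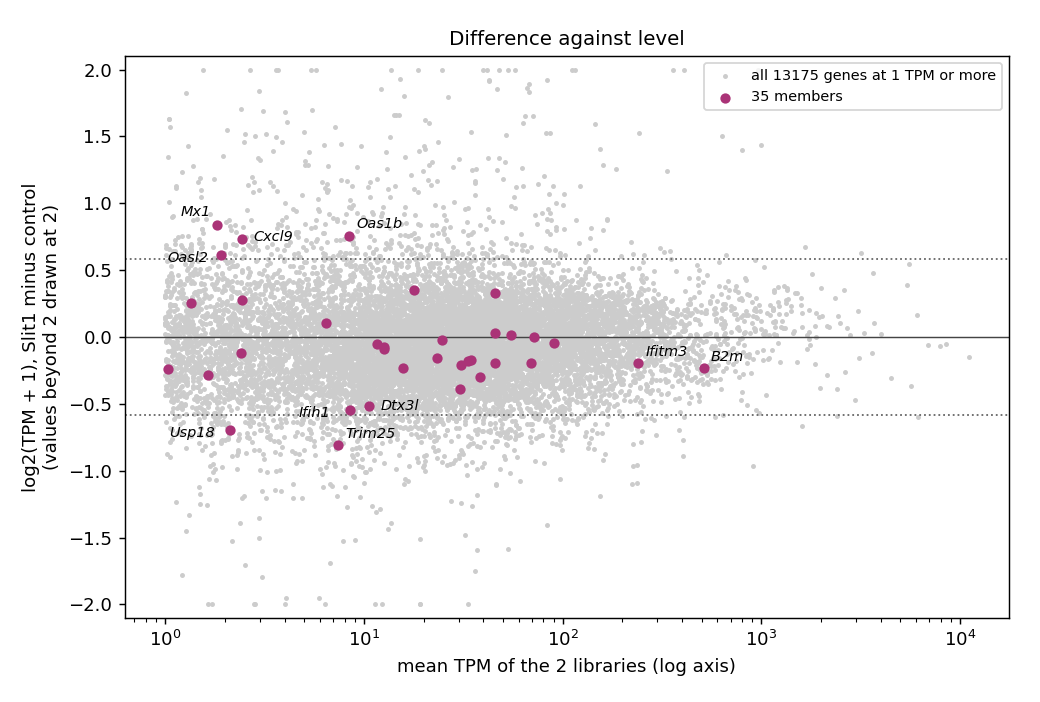
Difference of log2(TPM + 1), Slit1 minus control, against the mean TPM of both libraries (log axis) for all 13175 genes at 1 TPM or more (grey) and the 35 members among them (purple), with dotted lines at 1.5-fold. Mx1, Cxcl9, Oasl2 and Oas1b lie above the upper line, Trim25 and Usp18 below the lower one, and the members at 20 TPM or more lie between the lines.

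The 5 MHC class I members, led by B2m, held the largest summed level of any role, 620 TPM in Slit1 and 717 TPM in control. Of these 5, 4 were below 0, as were 53.7% of all genes at 20 TPM or more. B2m encodes beta-2 microglobulin, the light chain that every class I molecule needs at the cell surface. It ranked first among the members with 471 TPM in Slit1 and 553 TPM in control (7548 and 8510 counts), a ratio of 0.852 (95% counting interval 0.826 to 0.879), and alone made up 32.6% of the members' summed TPM in Slit1 and 34.5% in control. Tap1 and Tap2 form the transporter that carries peptides into the endoplasmic reticulum. Tap1 measured 28.4 TPM in Slit1 and 33.0 TPM in control (ratio 0.860, interval 0.773 to 0.955). Tap2 measured 21.9 and 24.6 TPM (ratio 0.891, interval 0.785 to 1.014), so only the first of the pair had an interval that left out 1.

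The class I heavy chains split. RT1-A1 measured 26.3 TPM in Slit1 and 34.8 TPM in control (358 and 439 counts, ratio 0.755, interval 0.656 to 0.872), whereas RT1-A2 measured 72.0 and 71.9 TPM (ratio 1.001, interval 0.915 to 1.10). These classical class I genes are close relatives in a polymorphic family, and reads may have been divided between them. Their summed counts were 1338 in Slit1 and 1380 in control, a CPM ratio of 0.961 (interval 0.890 to 1.04), and the difference in RT1-A1 alone is uncertain. RT1-CE5, a class I heavy chain outside the member list and named after its value was seen, was more abundant than either. It measured 177 TPM in Slit1 and 220.3 TPM in control (ratio 0.804, interval 0.762 to 0.849). It was not part of the summed counts, and its reads may have been divided as well. For RT1-M3-1 (ratio 0.909), RT1-S3 (0.978), RT1-N3 (1.0) and RT1-T24-4 (1.12), also outside the member list, the interval held 1. All 5 class I members lay within 1.5-fold, with a median difference of -0.21.

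GBPs and chemokines, typical targets of interferon gamma, were abundant apart from Gbp4 and Cxcl9. Gbp2, a GTPase of the family that attacks intracellular pathogens, stood at 88.7 TPM in Slit1 and 91.8 TPM in control (ratio 0.967, interval 0.906 to 1.03). Gbp5, which promotes inflammasome assembly, was at 34.2 and 42.4 TPM (ratio 0.808, interval 0.736 to 0.886). Gbp4 was scarce, at 1.38 and 1.90 TPM (31.3 and 43.2 counts, ratio 0.726, interval 0.441 to 1.18). The 3 GBPs therefore all had ratios below 1, of which only that of Gbp5 had an interval without 1. Cxcl10, a chemokine that attracts activated T cells and that astrocytes are known to secrete, measured 64.4 TPM in Slit1 and 73.9 TPM in control (ratio 0.872, interval 0.782 to 0.973; CPM interval 0.806 to 1.003). Cxcl9, a chemokine for the same receptor, went the other way at far lower level, with 3.30 TPM in Slit1 and 1.59 TPM in control. It passed the 1.5-fold limit with a ratio of 2.07, but on 15.0 and 6.94 counts the interval ran from 0.790 to 5.97, and the difference was not detectable at this depth.

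The transcription factors that carry the interferon signal were the most even of the roles. Irf1, induced early by interferon gamma, measured 55.3 TPM in Slit1 and 54.7 TPM in control (ratio 1.011, interval 0.922 to 1.11). Stat2, a signal transducer of the type I receptor, measured 46.2 and 45.4 TPM (ratio 1.02, interval 0.944 to 1.10). Irf9, the DNA-binding subunit of the same complex, measured 24.6 and 24.97 TPM (ratio 0.984, interval 0.867 to 1.12). Irf7, which amplifies the transcription of type I interferons, measured 6.72 and 6.18 TPM (120 and 108 counts, ratio 1.09, interval 0.829 to 1.42). For each of these 4 the interval held 1. Sp100, a component of nuclear bodies, was almost absent, at 0.15 TPM in both libraries (5.41 and 6.35 counts).

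Of the 13 antiviral effectors at 1 TPM or more, 3 (Mx1, Oas1b and Oasl2) were at least 1.5-fold higher in the Slit1 library and 0 lower. Over all genes, 3.72% were higher and 4.83% lower. These 3 are Mx and oligoadenylate synthetase genes, a grouping that was not among the roles set for the members. Of the other Mx and oligoadenylate synthetase members, Mx2 lay between the limits, and Oas1a and Oasl were under the floor of 1 TPM. Mx1 encodes a dynamin-like GTPase of the nucleus in rodents that blocks influenza-type viruses. It measured 2.62 TPM in Slit1 (76.5 counts) and 1.03 TPM in control (29.2 counts), a ratio of 2.54 (interval 1.66 to 4.09), the only TPM ratio among the 35 whose counting interval lay wholly beyond 1.5-fold. The share of all genes with such an interval is not given here. Mx2, its cytoplasmic relative in the rat, was much more abundant, with 51.2 TPM in Slit1 and 40.4 TPM in control (ratio 1.27, interval 1.16 to 1.38). The summed counts of both were 1286 in Slit1 and 955 in control (CPM ratio 1.33, interval 1.23 to 1.45), within 1.5-fold; Mx2 gave 1210 of the counts in Slit1 and 926 in control.

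Oligoadenylate synthetases sense double-stranded RNA and make the messenger that activates RNase L. Oas1b measured 10.9 TPM in Slit1 (157 counts) and 6.03 TPM in control (74.8 counts), a ratio of 1.81 (interval 1.36 to 2.41); in CPM the ratio was 2.07 and its interval, 1.56 to 2.77, was wholly beyond 1.5-fold. Oasl2, an OAS-like relative, measured 2.53 TPM in Slit1 (45.0 counts) and 1.31 TPM in control (22.4 counts), a ratio of 1.93 (interval 1.16 to 3.44). Oas1a, which stayed under the floor with a mean below 1 TPM, measured 1.43 TPM in Slit1 (17.4 counts) and 0.14 TPM in control (1.69 counts); the ratio of 10.2 had an interval of 2.001 to 75.2. Oasl was at 0.75 and 0.66 TPM (13 and 11 counts, ratio 1.14, interval 0.470 to 2.80). Oas1b and Oasl2 passed 1.5-fold, as did 3.72% of all genes upward, and their intervals lay above 1, as did those of 22.3% of all genes. Oas1a and Oasl, under the floor, were outside the main counts. Because Oas1a and Oas1b are paralogs whose reads may be shared, the counts of Oas1a, Oas1b and Oas1k were summed after their values were seen: 175 in Slit1 and 78.1 in control, a CPM ratio of 2.22 (interval 1.69 to 2.94). Without the members that belong to families of similar genes, 1 of 25 was at least 1.5-fold higher, namely Cxcl9, and 2 were lower, Trim25 and Usp18, beside 3.72% and 4.83% of all genes.

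**Figure D3:**
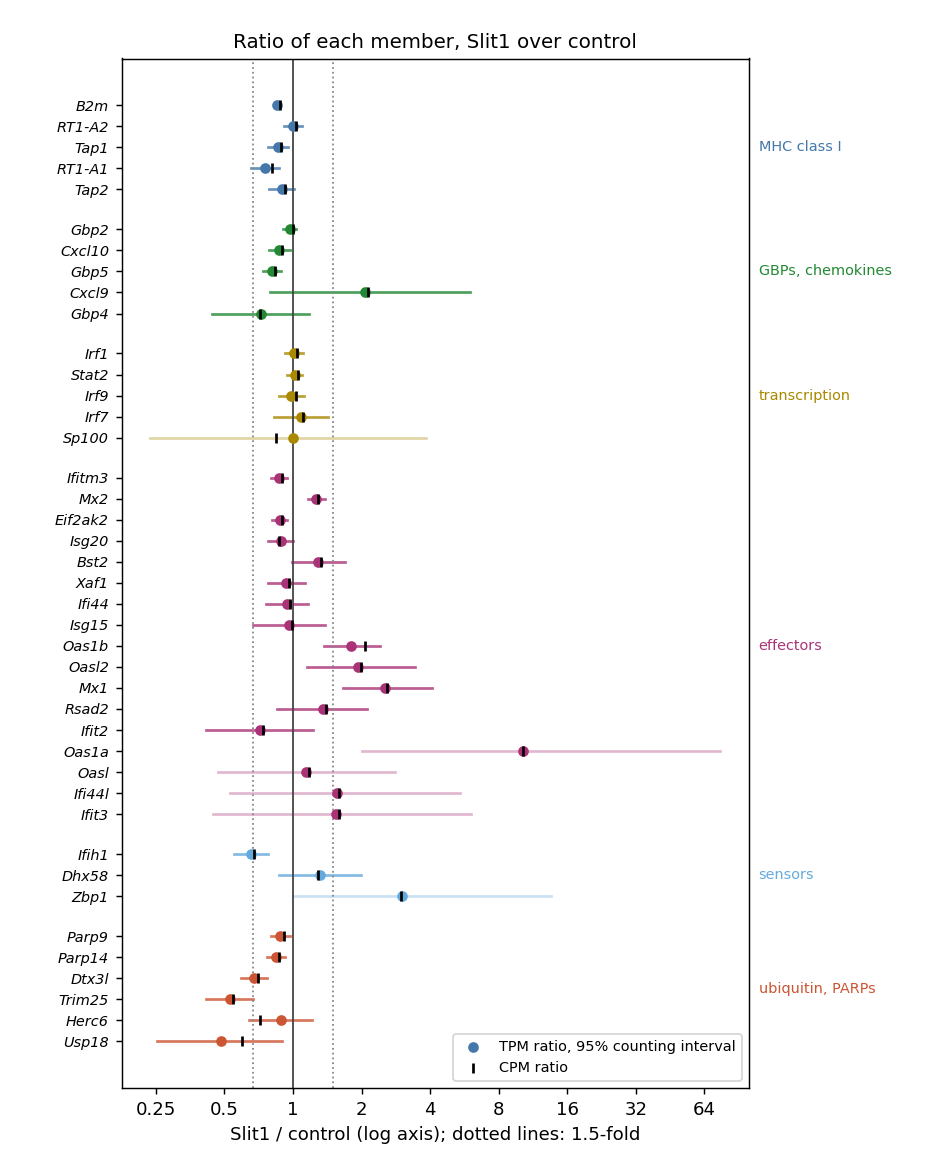
Ratio of TPM, Slit1 over control (log axis), of the 41 members grouped by role, as points with 95% counting intervals (paler for the 6 members under a mean of 1 TPM), and the ratio of CPM as a black tick; dotted lines mark 1.5-fold. The intervals of Mx1, Mx2, Oas1a, Oas1b and Oasl2 lie above 1. Those of 14 members lie below 1, with the lowest ratios in Usp18, Trim25, Ifih1 and Dtx3l. The interferon-signalling transcription factors lie on 1.

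The remaining effectors passed 1.5-fold in neither direction or lay under the floor. Isg15, a ubiquitin-like modifier that is among the most inducible genes of a type I response, had 63.0 counts in either library (11.4 TPM in Slit1, 11.9 TPM in control, ratio 0.960, interval 0.666 to 1.38). Rsad2 (viperin, an antiviral radical enzyme) measured 1.56 and 1.15 TPM (50 and 35.5 counts, ratio 1.36, interval 0.855 to 2.12). Ifit2 and Ifit3 encode proteins that bind foreign RNA, and both were scarce: Ifit2 had 26.02 counts in Slit1 and 34.95 in control, Ifit3 had 8 and 5 counts. Ifi44 stood at 12.3 and 13.03 TPM (ratio 0.943, interval 0.765 to 1.16), while Ifi44l had 10 and 6.20 counts. The scarcity of Ifit2, Ifit3, Rsad2 and Oas1a, each under 2 TPM in both libraries, contrasts with the members that were abundant in both.

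Ifitm3, a membrane protein that hinders viral entry, ranked second with 223.5 TPM in Slit1 and 256 TPM in control (ratio 0.872, interval 0.803 to 0.946). Eif2ak2 (PKR, the kinase that halts translation on double-stranded RNA) measured 42.5 and 48.7 TPM (ratio 0.873, interval 0.812 to 0.938). Isg20, an exonuclease, measured 32.3 and 36.6 TPM (ratio 0.882, interval 0.781 to 0.996). These 3 had nearly the same ratio as B2m, Tap1 and Cxcl10. Bst2 (tetherin, which holds budding virions at the membrane) measured 20.2 TPM in Slit1 and 15.6 TPM in control (136 and 101 counts, ratio 1.29, interval 0.993 to 1.69; CPM interval 1.02 to 1.74). Xaf1, a pro-apoptotic protein, measured 12.3 and 13.1 TPM (ratio 0.936, interval 0.774 to 1.13).

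The sensors of nucleic acid went in different directions. Ifih1 (MDA5, a helicase that senses long double-stranded RNA) measured 6.71 TPM in Slit1 (233 counts) and 10.3 TPM in control (342 counts), a ratio of 0.655 (interval 0.553 to 0.777), just short of 1.5-fold on the log2(TPM + 1) scale with a difference of -0.55. Dhx58 (LGP2, a related helicase that modulates MDA5) measured 2.76 and 2.11 TPM (57.0 and 44.0 counts, ratio 1.31, interval 0.867 to 1.98). Zbp1, a sensor of Z-form nucleic acid, had 13.1 counts in Slit1 and 4.35 in control (0.33 and 0.11 TPM, ratio 3.0, interval 0.998 to 13.6). Of these 3, only the difference of Ifih1 was larger than counting error.

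All 6 members that act through ubiquitin, ISG15 or ADP-ribosylation were below 0, with a median difference of -0.37, beside -0.05 over all genes. Of all genes, 53.7% at 20 TPM or more and 59.2% at 1 to 20 TPM were below 0. Trim25, a ubiquitin ligase that acts on the RNA sensor RIG-I, was lowest on the log2(TPM + 1) scale, with 5.14 TPM in Slit1 (111 counts) and 9.74 TPM in control (202 counts), a ratio of 0.528 (interval 0.415 to 0.669). Usp18, which removes ISG15 from proteins and restrains the type I receptor, measured 1.39 TPM in Slit1 (17.8 counts) and 2.87 TPM in control (29.6 counts). Its TPM ratio was 0.484 (interval 0.253 to 0.895), but its CPM ratio was 0.596 with an interval of 0.312 to 1.10. On the log2(CPM + 1) scale its difference was -0.41, short of the 1.5-fold limit on that scale. TPM and CPM differ by the gene length used for each library, which is not constant in the deposited values. They also differ by a scaling shared by all genes of a library. The TPM ratio was 0.97 of the CPM ratio for B2m, Tap1 and Gbp2, and 0.812 of it for Usp18. Herc6, the ISG15 ligase of rodents, showed the opposite gap, with a TPM ratio of 0.886 (interval 0.643 to 1.22) and a CPM ratio of 0.714 (interval 0.518 to 0.982) on 69.99 and 97.03 counts.

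Dtx3l and Parp9 encode partners, a ubiquitin ligase and a macrodomain protein, and their genes overlap in the RefSeq table. Dtx3l measured 8.59 TPM in Slit1 (370 counts) and 12.7 TPM in control (522 counts), a ratio of 0.674 (interval 0.589 to 0.773). Parp9 measured 31.3 and 35.5 TPM (889 and 965 counts, ratio 0.881, interval 0.804 to 0.966; CPM interval 0.832 to 1.001). Parp14, an ADP-ribosyltransferase, measured 14.3 and 17.0 TPM (ratio 0.845, interval 0.772 to 0.924). The labels do not say whether the counting used strand, so reads of Dtx3l and Parp9 may not be separable where the genes overlap; 8 members overlap another annotated gene.

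Members with and without an ISRE match were set side by side. Among the 20 members at 1 TPM or more with an ISRE match, 2 were higher (Oas1b and Oasl2) and 0 lower, 15 lay below 0, and the median difference was -0.18. Among the 10 with a promoter and no match, 2 were higher (Mx1 and Cxcl9) and 1 lower (Trim25), 5 lay below 0, and the median was -0.01. Of all genes, with or without a promoter, 53.7% at 20 TPM or more and 59.2% at 1 to 20 TPM lay below 0. The 10745 genes at 1 TPM or more with a promoter include these members. Among them, the 325 with an ISRE had a median of -0.12, with 3.69% higher and 6.46% lower. Those without had a median of -0.04, with 3.46% higher and 4.41% lower. These are descriptions of letters in a short window and were not tested.

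Upstream of the members, most receptors and kinases were above 20 TPM in both libraries. Of the 9 receptor and JAK-STAT genes described here at 1 TPM or more, none passed 1.5-fold in either direction, and the median difference was -0.13. Ifnar1 measured 88.8 TPM in Slit1 and 96.9 TPM in control (ratio 0.917, interval 0.877 to 0.959), and Ifnar2 measured 49.1 and 50.6 TPM (ratio 0.970, interval 0.894 to 1.05). Ifngr1 measured 60.1 and 59.2 TPM (ratio 1.015, interval 0.928 to 1.11), and Ifngr2 measured 49.9 and 54.5 TPM (ratio 0.915, interval 0.843 to 0.993). The largest difference among those at 1 TPM or more was that of Jak1, at 112 TPM in Slit1 and 142 TPM in control (ratio 0.789, interval 0.758 to 0.820), followed by Il10rb (ratio 0.824), Jak2 (0.843) and Stat3 (0.871). Ifnlr1, a receptor chain for type III interferon, was under the floor, at 0.48 TPM in Slit1 and 0.97 TPM in control (ratio 0.495, interval 0.275 to 0.873). Of the ligands, Ifna1 and Ifna2 were measured, with 0.80 and 0.62 counts in Slit1 and 0.99 and 0 counts in control, and the other 8 of the list were not analysed here.

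Among 11 inhibitors of the pathway at 1 TPM or more, 1 was lower and none higher. Socs1, the suppressor that blocks JAK kinases and is itself induced by interferon, measured 2.88 TPM in Slit1 (29.6 counts) and 6.39 TPM in control (63.0 counts), a ratio of 0.451 (interval 0.285 to 0.716). Pias4 (ratio 1.31), Ptpn2 (0.808) and Irf2 (0.847) lay within 1.5-fold, and the median was -0.11.

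Of 16 measured nucleic acid sensing genes at 1 TPM or more, 1 was higher and 1 lower, with a median of -0.01. Aim2, a sensor of cytosolic DNA, had the largest difference on these pathway lists, with 3.55 TPM in Slit1 (58.1 counts) and 0.56 TPM in control (10 counts), a ratio of 6.34 (interval 3.21 to 13.9). Tlr3, the endosomal receptor for double-stranded RNA, measured 4.91 TPM in Slit1 (182 counts) and 9.59 TPM in control (338 counts), a ratio of 0.512 (interval 0.425 to 0.615). Irf3, the factor that switches on interferon beta, measured 136.8 and 102.6 TPM (ratio 1.33, interval 1.24 to 1.43), and Ikbke, a kinase upstream of it, had a ratio of 1.42 on 95 and 73 counts.

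None of the 18 further genes of class I loading and the immunoproteasome passed 1.5-fold, and their median was -0.09. Tapbp (tapasin, which links class I molecules to the transporter) measured 54.3 TPM in Slit1 and 65.2 TPM in control (ratio 0.833, interval 0.768 to 0.903). The immunoproteasome subunits differed in direction: Psmb8 had a ratio of 1.06 (interval 0.908 to 1.24), Psmb9 0.878 (interval 0.715 to 1.07) and Psmb10 1.34 (interval 1.19 to 1.51). Nlrc5, the transactivator of class I genes, measured 2.20 and 2.57 TPM (ratio 0.856, interval 0.685 to 1.07). Sppl2a (ratio 0.706), Psme2 (0.704) and Erap1, a peptide-trimming protease (0.766), were the lowest of the list.

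Of 29 further interferon-stimulated genes at 1 TPM or more, 1 was higher and none lower, with a median of -0.07. Lgals9 (galectin 9) measured 3.97 TPM in Slit1 (51.5 counts) and 1.26 TPM in control (15.2 counts), a ratio of 3.15 (interval 1.75 to 6.06). Trim21, a ubiquitin ligase that binds antibody-coated particles, had a ratio of 0.660 (interval 0.570 to 0.765), Gbp6 0.705 (interval 0.620 to 0.802) and Ifi27 1.38 (interval 1.15 to 1.66). Against the background of 3.72% higher and 4.83% lower, the 83 pathway genes outside the member list held 2 that were higher and 2 that were lower.

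**Figure D4:**
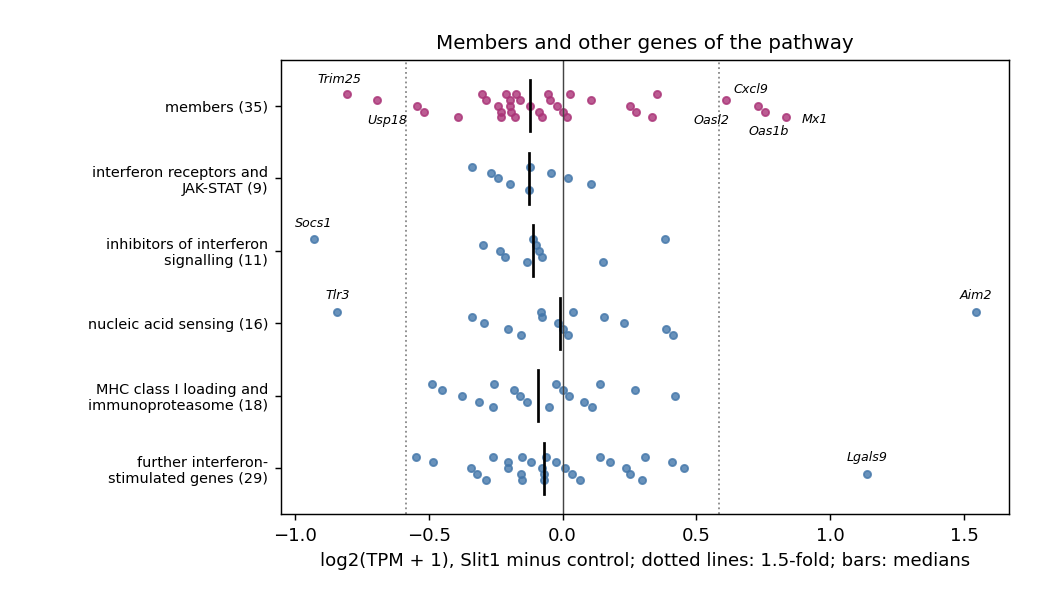
Difference of log2(TPM + 1), Slit1 minus control, for the 35 members and for 5 further lists of the pathway, with 1 point per gene at 1 TPM or more (number in brackets), black bars at the medians and dotted lines at 1.5-fold. All 6 medians lie between -0.13 and -0.01, and the points past the lines are those named on the plot.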

How the data were processed

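Total RNA was extracted with a Promega kit and made into 1 Illumina library a group, per the labels' protocols. The authors deposited 1 table with a row per gene and, per the file headers, FPKM, TPM and a read count for each library. TPM, scaled by the authors to 1000000 per library, was the main unit, and the authors' FPKM served as an alternative. The deposited counts are estimated counts: 31.4% in Slit1 and 26.1% in control lay within 0.01 of a whole number; they were rounded for intervals and factors. Per the submitters' processing notes the build was mRatBN7.2; how reads were aligned and counted, and with which annotation, is not stated there.

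Ratios of TPM carry exact (Clopper-Pearson) 95% intervals for 2 Poisson counts. CPM was computed from the estimated counts; TMM factors came from edgeR 4.0.16 and size factors from DESeq2 1.42.0. Calculations used Python 3.11.15 and were tested on simulated data. Gene IDs of all 41 members matched RefSeq (GRCr8), used for promoters and overlaps only. Values of other samples filled 0 columns.

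Every member is named; from each pathway list up to 4 genes with the largest absolute difference and 8 fixed genes are named, and others, such as marker genes at 0, were chosen after their values were seen. The members and lists were chosen with earlier results of these data known. Of the genes under this rule, 1 is not reported here. Alternatives were other pseudocounts, floors, units, scalings, fold limits and exclusions.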

Additional observations from a re-analysis of the deposited data

How the results depend on the processing

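No paired analysis was possible because the groups share 1 replicate number and each has 1 library, and no replicate could be left out. The counts of 4 higher and 2 lower members depended on the settings. With a pseudocount of 5 (1.96% of all genes higher, 2.102% lower), or a limit of 2-fold, 0 members were higher and 0 lower. With a pseudocount of 0.1 (4.76% and 6.58%), 4 were higher and 3 lower, Ifih1 added. With a floor of 5 TPM (3.10% and 4.23%), 1 was higher (Oas1b) and 1 lower (Trim25) of 26. In deposited FPKM (3.29% and 2.74%), 2 were higher (Mx1 and Oas1b) and 1 lower (Trim25). In CPM, with edgeR TMM factors and with DESeq2 size factors, 1 was lower (Trim25), and 3 were higher (Mx1, Oas1b and Oasl2), where 3.42% to 3.55% of all genes were lower and 3.93% to 4.12% higher. Intervals of the TPM ratio wholly beyond 1.5-fold left 1 higher (Mx1) and 0 lower, those of the CPM ratio, added after seeing the data, 2 (Mx1 and Oas1b) and 0, and 1 was higher without families of similar genes. The share of all genes with intervals wholly beyond 1.5-fold is not given here, so the counts by interval have no background beside them. With no floor (3.36% of all genes higher, 4.16% lower), 5 of 41 were higher, Oas1a added, and 2 were lower (Trim25 and Usp18). No called member changed sign under the 9 settings of unit, scaling, floor and pseudocount, where each could be computed, and the median of the members stayed between -0.17 and -0.05. Of 311 values of single members under the alternatives, 4 moved beyond counting error (B2m under 3 scalings and RT1-A1 when summed with RT1-A2). Depth limits the members under 5 TPM, where a difference of 1.5-fold can lie within counting error.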

Other observations

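Pathway genes under a mean of 1 TPM were in no count of the report. Phf11, an interferon-stimulated gene, had 11.2 counts in Slit1 and 0 in control, which is 3.74-fold a floor of 3 counts set for the control library. RT1-Ba, a chain of MHC class II, had 18.0 counts in Slit1 and 0 in control, which is 5.99-fold the same floor. Both folds leave out the counting error of the Slit1 library and are not lower bounds. Sting1, the adaptor of cytosolic DNA sensing, had 14 counts in Slit1 and 6 in control (TPM ratio 2.23, 95% counting interval 0.804 to 7.08). Slfn3, a Schlafen gene, had 2.88 counts in Slit1 and 9.02 in control (TPM ratio 0.333, interval 0.0606 to 1.39). These genes were chosen after their values were seen, and none of these values has a replicate.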
